A study of Mus musculus with 2 samples.

Results

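The genes described here encode the subunits of the proteasome and of its interferon-inducible form, the immunoproteasome, as measured in mouse tumour cells selected on CD45 and sequenced as 2 single-cell libraries. They were found by symbol (Psma, Psmb, Psmc, Psmd or Psme followed by a digit) with at least 50 UMIs over both libraries: 45 of 32285 gene models matched and 44 had enough UMIs, while Psmb11, the thymus-restricted core subunit, had 0 UMIs. By role they were 5 immunoproteasome genes, 14 genes of the constitutive core, 17 of the 19S cap, 3 cap assembly factors, 2 other activators (Psme3 and Psme4) and Psma8, a core subunit of the testis. Psmc3ip, a meiotic recombination protein, and Psme2b, a near-copy of Psme2, matched by name only. The split into roles did not use any measured value.

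One library is labelled CEP, for cepharanthine, and the other is the vehicle control, spelled "Vehide" in its title and called Vehicle here. Cepharanthine is a plant alkaloid. The study text states 5 biological replicates per group, but no label ties cells to animals, so each group was 1 library, no test between groups was possible, and the intervals given cover the error of counting UMIs only. How far cells, animals or library preparations vary is outside them. The mouse strain, age and sex, the tumour line, the dose and the duration of treatment are not given in the sources used here.

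Proteasomes cut ubiquitin-tagged proteins into peptides. The core is a barrel of alpha rings, built from the Psma subunits, around beta rings, built from the Psmb subunits, of which Psmb5, Psmb6 and Psmb7 carry the cutting sites. Interferon-gamma induces Psmb8, Psmb9 and Psmb10, which take the places of Psmb5, Psmb6 and Psmb7 in newly made cores, together with Psme1 and Psme2, which form the activator PA28. The resulting immunoproteasome changes the peptides that are offered on MHC class I, and macrophages and lymphocytes carry much of it.

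Promoter stretches are shown for 2 inducible and 2 constitutive genes in which a searched motif was found. RefSeq windows (GRCm38.p6, 250 bases before to 50 after a transcript start, 300 bases each) were found for 37 of the 44 genes, in 40 windows. Sequences are 5′ to 3′ on the strand of the gene, with the motif in capitals. The inducible genes are Psmb8, with a GAS motif, named for gamma-activated sites, at chr17:34198088-34198117 on the plus strand, and Psme1, with an IRF motif, read on the opposite strand, at chr14:55578494-55578523 on the plus strand. Relative to the RefSeq start, the Psmb8 stretch covers bases -107 to -78. The Psme1 stretch covers bases 1 to 30, after the start. Both lie inside the GENCODE gene models given below. The constitutive genes are Psmb5, with an ARE motif, the letters bound by Nfe2l1 and Nfe2l2, at chr14:54618023-54618242 on the minus strand, and Psmb6, with an ARE motif at chr11:70525137-70525356 on the plus strand.
Psmb8: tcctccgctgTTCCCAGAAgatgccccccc
Psme1: gagctgtgctTTCGCTTTCccttcccgctg
Psmb5: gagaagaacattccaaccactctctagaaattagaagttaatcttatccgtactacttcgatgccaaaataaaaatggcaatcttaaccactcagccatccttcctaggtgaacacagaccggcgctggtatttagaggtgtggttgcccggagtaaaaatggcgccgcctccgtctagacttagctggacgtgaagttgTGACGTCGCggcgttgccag
Psmb6: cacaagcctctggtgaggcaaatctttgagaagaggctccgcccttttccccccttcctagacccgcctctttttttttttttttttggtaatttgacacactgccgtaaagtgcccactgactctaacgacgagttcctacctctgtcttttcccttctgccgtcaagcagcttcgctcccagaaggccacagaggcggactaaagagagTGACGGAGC

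The motifs searched on both strands were GAAANNGAA (IRF), TTCNNNGAA (GAS), TGACNNNGC (ARE) and the kB site by its name. Of the 5 immunoproteasome genes only Psmb8 held a GAS match and only Psme1 an IRF match, and none held an ARE or kB match. Of the 11 core genes with a window, Psmb3 and Psmb4 held IRF, Psmb5 and Psmb6 ARE, and Psma6 and Psma7 kB matches. Of the 14 cap genes with a window, Psmc2 and Psmd4 held IRF, Psmd2 GAS, Psmc6 and Psmd12 ARE, and Psmd11, Psmd12 and Psmd13 kB matches. Over all 32851 windows, 8.56% held the IRF letters, 8.30% the GAS letters, 12.4% the ARE letters and 8.46% the kB letters. A match is a description of the letters, and the absence of one, as for Psmb9 and Psmb10, says only that these letters were not in that window.

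The proteasome genes are spread over many chromosomes, but some of the immunoproteasome genes lie close to each other. Psmb8 (chromosome 17, 34197721 to 34201454, plus strand) and Psmb9 (chromosome 17, 34181987 to 34187764, minus strand) flank Tap1, which encodes 1 chain of the peptide transporter into the endoplasmic reticulum. In GENCODE M21 the Psmb9 and Tap1 models overlap by 212 bases at their starts, on opposite strands, and Psmb8 starts 495 bases after Tap1 ends. Psme1 (chromosome 14, 55578123 to 55581529, plus strand) and Psme2 (chromosome 14, 55587441 to 55591113, minus strand) are 5911 bases apart. Psmb10 lies alone among these genes (chromosome 8, 105935735 to 105938444, minus strand). Counts of Psme2 and of its near-copy Psme2b are uncertain, since reads may be shared between them.

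The libraries held 9621 CEP barcodes with 88721774 UMIs and 9989 Vehicle barcodes with 81208647 UMIs, and 8842 and 9155 cells were kept. Cells were sorted into classes by transcripts: macrophages by at least 10 UMIs of the C1q genes, neutrophils by at least 1 of Csf3r and Cxcr2, T cells by at least 2 of the Cd3 genes, and epithelial cells by at least 10 of Krt8 and Krt18, with upper limits on C1q in the last 3. The classes held 4163 CEP and 4565 Vehicle macrophages, 1652 and 2103 neutrophils, 170 and 258 T cells, and 780 and 111 epithelial cells, the last although the selection was stated to give over 95% purity. Markers that the rules did not use were all detected in the classes they name, but most were also detected elsewhere, so levels are given. Over all cells, macrophage markers summed to 17846 CPM in CEP and 17859 CPM in Vehicle macrophages, and at most 1277 CPM elsewhere. T cell markers were at 1186 and 1224 CPM in T cells, and at most 19.8 CPM elsewhere. Epithelial markers were at 2294 and 3048 CPM in epithelial cells, and at most 323 CPM elsewhere. Neutrophil markers were at 106718 and 124858 CPM in neutrophils, but reached 42466 CPM in Vehicle T cells. The libraries shared 136 cell barcodes.

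The rules let some cells into more than 1 class, and these cells weighed on neutrophils and T cells. In the neutrophil class, 35 CEP and 32 Vehicle cells also met another rule, with 13.7% and 5.58% of the class's UMIs. In the CEP library 17 of the 35 were also epithelial by rule, against 4 of the 32 in the Vehicle library. The median depth of all 35 CEP cells was 10691 UMIs, against 1751 UMIs over the CEP class. In the T cell class, 20 CEP and 28 Vehicle cells met another rule, and the summed neutrophil markers of 28491 and 42466 CPM were 355 and 446 CPM without them. Values for neutrophils and T cells are therefore given for all cells of the class and for cells that met 1 rule only. The limits on C1q keep macrophages out of the other classes by construction, so mixed cells among them cannot be counted this way.

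Levels are UMIs of a gene per 1000000 UMIs summed over the class (CPM). A 3′ UMI count is a count of captured transcripts, not of reads per length, but capture can differ between genes, so the shares of 2 genes below are compared between libraries and classes only.

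In the macrophages, the immunoproteasome genes were lower in the CEP library than in the Vehicle library, and by more than the constitutive core or the cap. Their summed level was 2278 CPM in CEP and 2655 CPM in Vehicle, a log2 ratio of -0.22 (95% interval -0.23 to -0.21). All 5 lay below the median log2 ratio of all 12293 genes measured in macrophages, which was 0.02. Psmb8, the inducible counterpart of Psmb5, was at 648 CPM in CEP and 780 CPM in Vehicle, a log2 ratio of -0.27 (-0.29 to -0.25). Psmb9, the counterpart of Psmb6, was at 358 and 425 CPM, a log2 ratio of -0.25 (-0.28 to -0.22). Psmb10, the counterpart of Psmb7, was at 273 and 297 CPM, with the smallest difference of the 5 (-0.12, interval -0.15 to -0.09).

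The PA28 genes differed by a similar amount. Psme1 was at 489 CPM in CEP and 560 CPM in Vehicle, a log2 ratio of -0.20 (-0.22 to -0.17). Psme2 was at 510 and 592 CPM, a log2 ratio of -0.21 (-0.24 to -0.19). Its near-copy Psme2b was at 19.2 and 21.8 CPM.

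These differences were small in fold but sat low among well-expressed genes. Of the 1374 genes with at least 100 CPM in macrophages, 2.47% had a log2 ratio at or below that of Psmb8, 2.77% at or below that of Psmb9, 4.22% for Psme2, 5.75% for Psme1 and 13.8% for Psmb10. With a limit of 1.2-fold, Psmb8 was the only one of the 44 genes past it in the lower direction and none was past it in the higher direction. With likely doublets kept, 0 genes were past it lower. Over all genes measured in macrophages, 6.65% were past that limit in the lower and 11.8% in the higher direction. The proteasome genes were thus not past the limit more often than other genes, and the 5 immunoproteasome genes shared a direction rather than a large fold. Epithelial markers were at 68.0 CPM in the CEP and 22.8 CPM in the Vehicle macrophages, 6 of 6 detected, and Krt8 and Krt18 together at 131 and 21.1 CPM, and their part in these values was not tested.

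The constitutive core was lower in the CEP macrophages to a lesser degree, at 3100 and 3342 CPM (log2 ratio -0.11, interval -0.12 to -0.10). Of its 14 genes, 13 lay below the median of all genes. The exception was Psmb6, a catalytic subunit, at 338 CPM in CEP and 327 CPM in Vehicle (0.05, interval 0.02 to 0.08). At the other end was Psma4, an alpha ring subunit, at 134 and 155 CPM (-0.21, interval -0.25 to -0.16), as low as Psme2. Psmb5 was at 234 and 246 CPM (-0.07) and Psmb7 at 81.7 and 86.8 CPM (-0.09).

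The 19S cap, which binds ubiquitin chains and unfolds the substrate, was close to equal, at 1560 and 1607 CPM (-0.04, interval -0.06 to -0.03). Of its 17 genes 15 lay below the median of all genes, at log2 ratios from -0.18 to 0.07. The lowest was Psmd14, the cap's deubiquitinase, at 79.5 CPM in CEP and 90.3 CPM in Vehicle (-0.18, interval -0.25 to -0.12). The highest was Psmd1, a scaffold subunit, at 85.6 and 81.8 CPM (0.07, interval 0.00 to 0.13). The 3 cap assembly factors Psmd5, Psmd9 and Psmd10 summed to 93.76 and 98.62 CPM (-0.07).

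The other activators went the opposite way from PA28. Psme3, the nuclear activator PA28-gamma, was at 45.1 CPM in CEP macrophages and 41.9 CPM in Vehicle macrophages (0.11, interval 0.02 to 0.20), and Psme4, the activator PA200, at 31.1 and 28.1 CPM (0.15, interval 0.04 to 0.25). Both were far below Psme1 and Psme2 in level. Psma8 was at 4.09 CPM in CEP and 4.18 CPM in Vehicle macrophages.

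**Figure D1:**
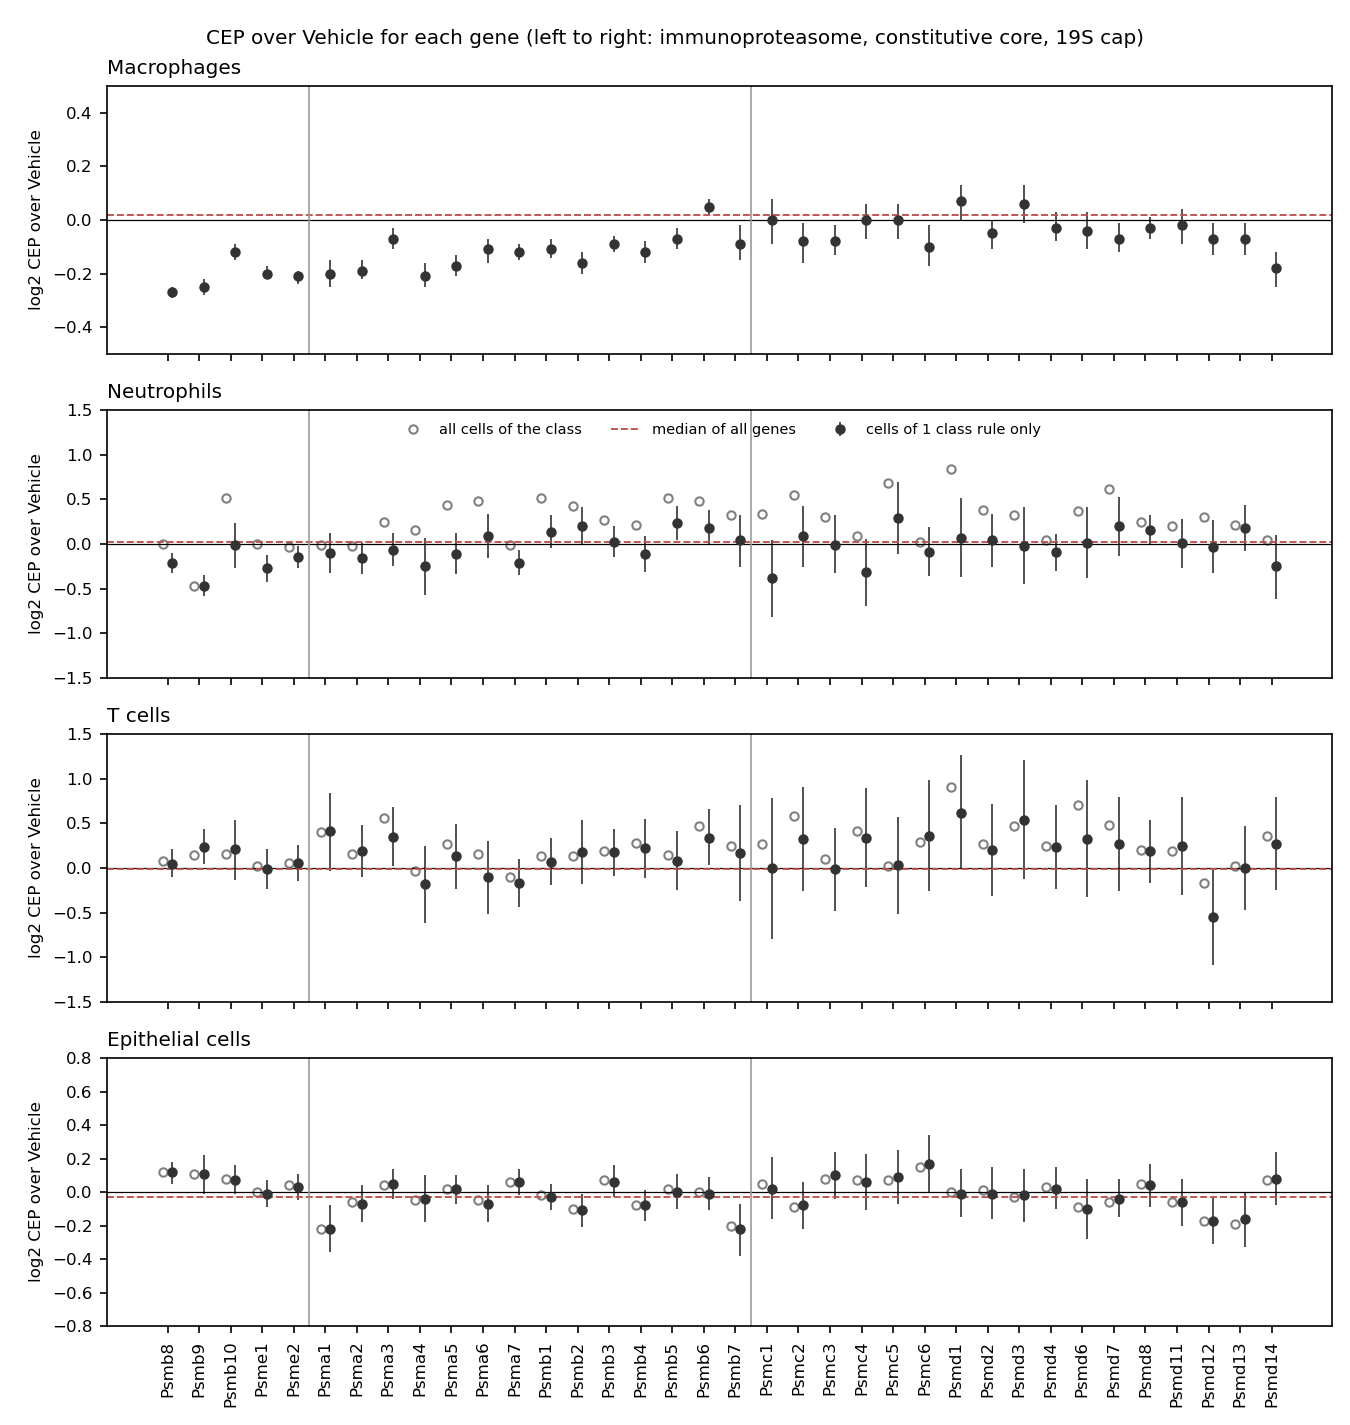
Log2 ratio of CEP over Vehicle for the 5 immunoproteasome, 14 core and 17 cap genes in each class (vertical axis), with filled points and 95% counting intervals for cells of 1 class rule, open points for all cells of the class, and a dashed line at the median of all genes. In macrophages the immunoproteasome genes lie between -0.27 and -0.12, and in neutrophils the open points of most core and cap genes lie above the filled ones.

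The plot of log2 ratios by gene shows that the neutrophils depended on which cells were counted. Over all cells of the class the immunoproteasome sum was 1049 CPM in CEP and 1117 CPM in Vehicle (log2 ratio -0.09, interval -0.14 to -0.04), while the core (0.27) and the cap (0.28) were higher in CEP. Of 42 genes measured, 21 were past 1.2-fold higher and 1, Psmb9, was past it lower, beside 35.8% and 11.3% of all genes. In cells of 1 rule only, the core was at 1304 and 1314 CPM (-0.01, interval -0.06 to 0.04) and the cap at 741.4 and 732.6 CPM (0.02, interval -0.05 to 0.09). In sums over the class, the higher core and cap of CEP were thus not seen without the deep cells that also met another rule. Psmb10 was among the 21 (0.52).

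In those cells of 1 rule, the immunoproteasome sum was 917.8 CPM in CEP and 1104 CPM in Vehicle, a log2 ratio of -0.27 (-0.33 to -0.21). Over all cells with likely doublets kept as well, the ratio was -0.01. Psmb9 was at 239 CPM in CEP and 330 CPM in Vehicle, a log2 ratio of -0.47 (-0.58 to -0.35), and over all cells of the class it was at 236 and 326 CPM. Psme1 was at 148 and 179 CPM (-0.27, interval -0.42 to -0.12) and Psmb8 at 250 and 290 CPM (-0.21, interval -0.33 to -0.10). Psme2 was at 222 and 246 CPM (-0.15, interval -0.27 to -0.02). Psmb10 was at 59.2 and 59.7 CPM, a log2 ratio of -0.01, so 4 of the 5 genes were lower by more than 0.1 on the log2 scale and Psmb10 was level.

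Of the 42 genes measured in neutrophils of 1 rule, 4 were past 1.2-fold lower, beside 12.3% of all genes, and 1 was past it higher, beside 19.5% of all genes. The 4 were Psmb9, Psme1 and the cap ATPases Psmc1 and Psmc4, and the 1 was Psmc5, also a cap ATPase. The 3 ATPases had 18.8 to 30.9 CPM and intervals that include 0, as for Psmc1 (-0.82 to 0.04), so the counting error allows no direction for them. Psma7, an alpha ring subunit, was at 172 and 199 CPM (-0.21, interval -0.35 to -0.07). Among the catalytic core genes Psmb5 was at 108 and 91.2 CPM (0.24, interval 0.05 to 0.43), Psmb6 at 104 and 91.6 CPM (0.18) and Psmb7 at 45.3 and 44.2 CPM (0.04). Psmb5 and Psmb9 thus differed in opposite directions in the same cells.

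Fibroblast markers moved with the CEP neutrophil class and were measured beside these values. Their sum was 1759 CPM in CEP and 11.6 CPM in Vehicle cells of 1 rule, and 6807 of the 6838 CEP marker UMIs came from 6 cells with a median of 21040 UMIs. Without cells holding at least 10 such UMIs the immunoproteasome log2 ratio was -0.26, that of the core -0.06 and that of the cap -0.02. Macrophage markers were at 1461 CPM in CEP and 1143 CPM in Vehicle neutrophils, 8.19% and 6.40% of their level in macrophages. Psmb9 at that share of its macrophage level would come to 29.3 and 27.2 CPM, against 239 and 330 CPM measured, and Psmb10 in CEP to 22.4 CPM, against 59.2 CPM. The part of such RNA in the neutrophil values was not tested further.

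The T cells gave no settled direction for the immunoproteasome. Its sum was 2501 CPM in CEP and 2359 CPM in Vehicle over all cells (0.08, interval 0.00 to 0.17), and 2881 and 2701 CPM in cells of 1 rule (0.09, interval 0.00 to 0.18). The ratio was -0.13 with each cell thinned to 1000 UMIs and -0.02 with the class limits doubled, and Psmb9 was at -0.21 in the thinned cells. In cells of 1 rule Psmb8 was at 1003 and 966 CPM (0.05), Psmb9 at 612 and 519 CPM (0.24, lower bound 0.04) and Psme1 at 471 and 474 CPM (-0.01). The core was at 3099 and 2833 CPM (0.13, interval 0.04 to 0.22) and the cap at 1547 and 1368 CPM (0.18, interval 0.05 to 0.30). With 150 CEP and 230 Vehicle cells of 1 rule, most single genes had intervals that include 0.

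The number of T cell genes past 1.2-fold differed with the cells and the setting used. Of 39 genes measured over all cells, 16 were higher and 1, the assembly factor Psmd9, lower in CEP, beside 23.5% and 20.9% of all genes. In cells of 1 rule, 12 of 38 were higher and 1, the cap subunit Psmd12, lower, beside 20.3% and 22.5%. With each cell thinned to 1000 UMIs, 2 were higher and 3 lower. Among the named genes, Psma3, an alpha ring subunit, was at 237 CPM in CEP and 186 CPM in Vehicle cells of 1 rule (0.35, lower bound 0.02), and Psma7 at 301 and 338 CPM (-0.17). Psmd1 was at 74.4 and 48.3 CPM (0.62), with a lower bound of -0.01. Macrophage markers were at 990 CPM in the CEP and 354 CPM in the Vehicle T cells of 1 rule, and their part in these values was not tested. Fibroblast markers were at 601 and 1718 CPM, and 1384 of the 1387 Vehicle marker UMIs came from 2 cells with 5.78% of the class's UMIs. Without cells holding at least 10 such UMIs the immunoproteasome ratio was 0.04 and the core ratio 0.09. With each cell given equal weight, the core was at 0.06 and the cap at 0.10 over all cells of the class, and with each cell thinned to 1000 UMIs the core was at -0.08.

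Past the same limit in both neutrophils and T cells, over all cells of each class, were the alpha ring subunit Psma5, the catalytic Psmb6, the cap ATPases Psmc1 and Psmc2 and the cap subunits Psmd1, Psmd2, Psmd3, Psmd6 and Psmd7, each higher in CEP. These are 9 of the 39 measured in both classes, beside 11.5% of all genes measured in both. Psmd1 was at 36.6 CPM in CEP and 20.4 CPM in Vehicle neutrophils (0.84), but at 20.3 and 19.3 CPM in neutrophils of 1 rule (0.07). Psma5 was at 106 and 78.2 CPM in neutrophils (0.44), but at 67.9 and 73.4 CPM in those of 1 rule (-0.11). In neutrophils of 1 rule none of the genes in this group was past the limit higher, while in T cells of 1 rule Psmb6 (269 and 212 CPM, 0.34), Psmc2, Psmd1, Psmd3, Psmd6 and Psmd7 were. At the low end of the groups over all neutrophils were Psma2 (-0.02) and the cap ATPase Psmc6 (0.02), and Psmd8, the only cap gene with at least 200 UMIs in T cells, was at 182 and 159 CPM there (0.20).

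The epithelial cells, few in the Vehicle library, differed from the macrophages in direction. Their immunoproteasome sum was 2352 CPM in CEP and 2241 CPM in Vehicle (0.07, interval 0.03 to 0.11), or 0.26 with cells thinned to 1000 UMIs, while the core was at 4185 and 4236 CPM (-0.02) and the cap at 2341 and 2357 CPM (-0.01). Psmb8 was at 772 and 712 CPM (0.12, interval 0.05 to 0.18), Psmb9 at 234 and 217 CPM (0.11, interval 0.00 to 0.23) and Psmb10 at 389 and 369 CPM (0.08). Psme1 was at 464 CPM in both libraries. Psmd5, a cap assembly factor, was the only one of 43 genes measured past 1.2-fold, at 41.3 and 50.1 CPM (-0.28), beside 17.6% of all genes lower and 13.7% higher. Of the core, Psma1 was lowest (129 and 150 CPM, -0.22) and Psmb3 highest (375 and 358 CPM, 0.07), and of the cap Psmd13 (104 and 118 CPM, -0.19) and Psmc6 (114 and 103 CPM, 0.15). Fibroblast markers were at 35.1 CPM in the CEP and 3.76 CPM in the Vehicle epithelial cells, neutrophil markers at 259 and 203 CPM, and epithelial markers at 2294 and 3048 CPM, and their part in the ratios was not tested.

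**Figure D2:**
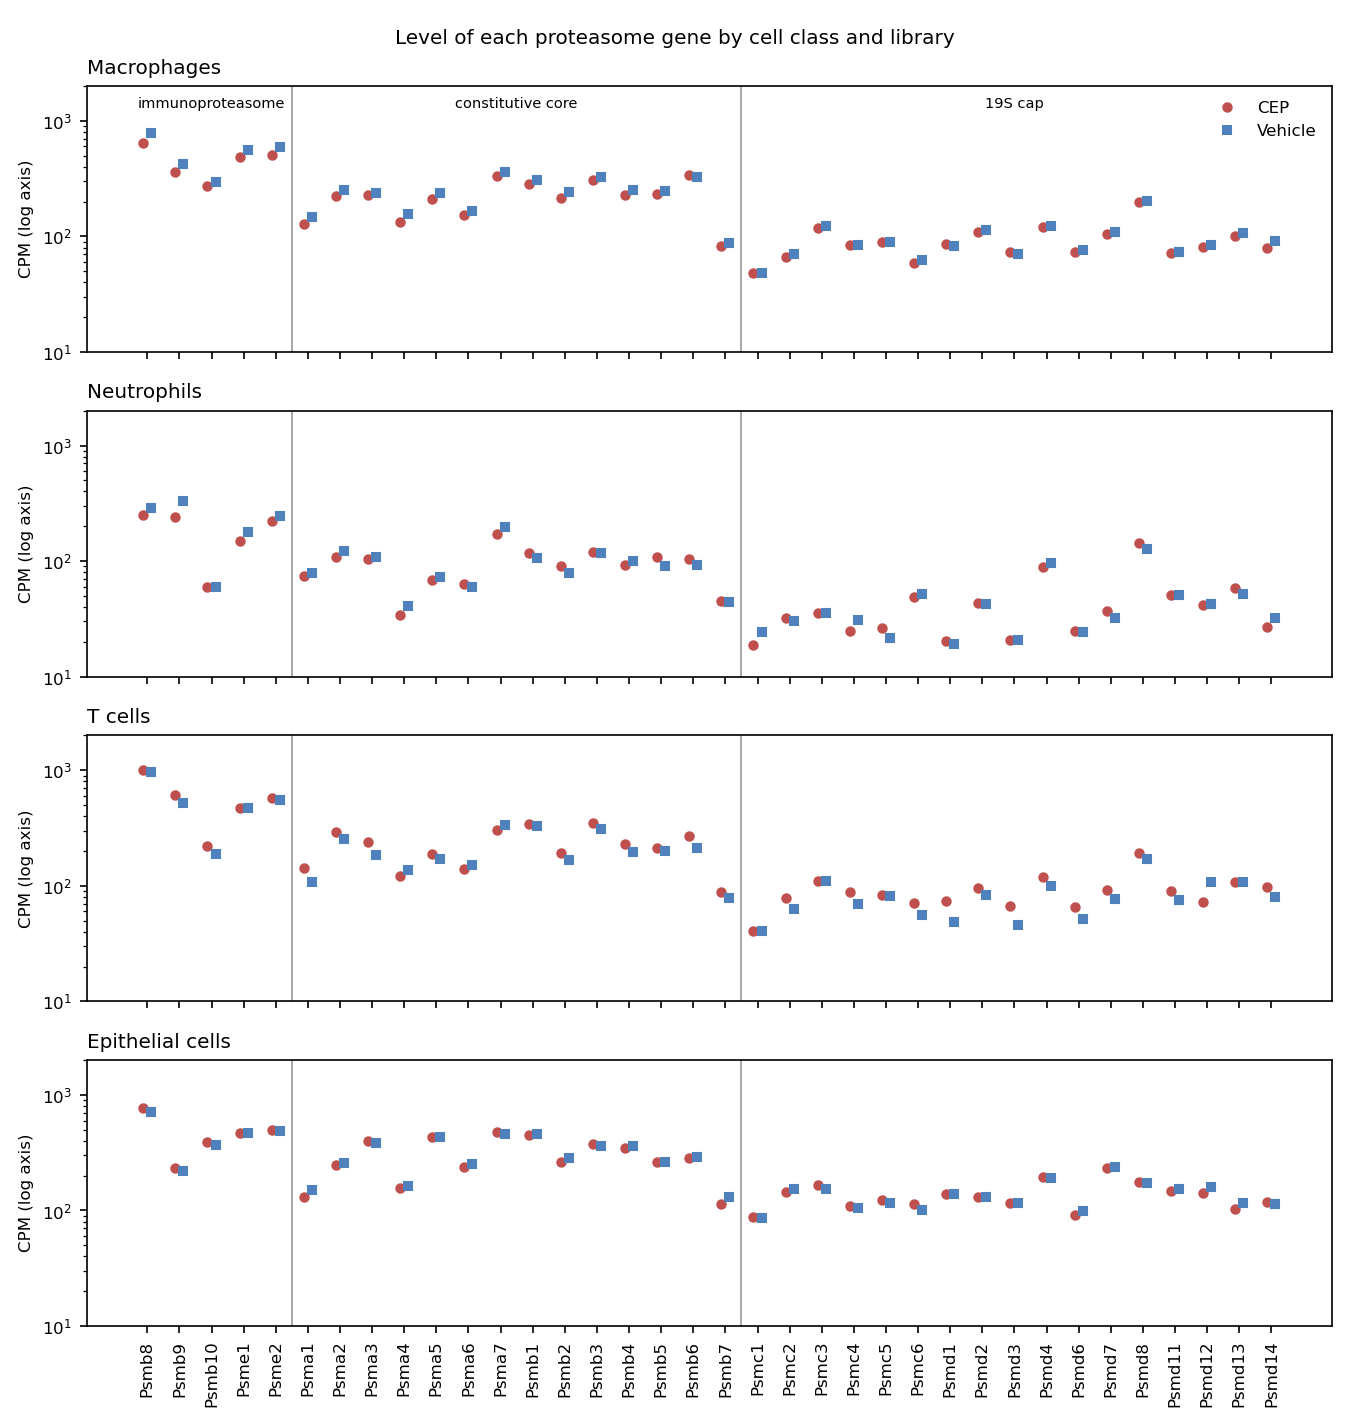
Level of each immunoproteasome, core and cap gene in CPM (log axis) in cells of 1 class rule, with circles for the CEP library and squares for the Vehicle library. Each point is 1 sum over a class, with no replicate. Psmb8 ranges from 250 CPM in CEP neutrophils to 1003 CPM in CEP T cells.

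The classes carried the genes at different levels, as the plot of gene levels shows. In cells of 1 rule Psmb8 was highest in T cells (1003 CPM in CEP and 966 CPM in Vehicle), then in epithelial cells (774 and 714 CPM) and macrophages (648 and 780 CPM), which overlapped between libraries, and lowest in neutrophils (250 and 290 CPM). Psmb9 was also highest in T cells (612 and 519 CPM), followed by macrophages (358 and 425 CPM), neutrophils (239 and 330 CPM) and epithelial cells (234 and 218 CPM), the last 2 close to each other in CEP. Psmb10 had another order, with epithelial cells first (390 and 370 CPM), then macrophages (273 and 297 CPM), T cells (219 and 189 CPM) and neutrophils (59.2 and 59.7 CPM).

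Most proteasome genes were lower in neutrophils than in macrophages. At 2-fold or more in both libraries, over all cells of a class, 17 of 44 genes were higher in macrophages, among them Psmb8, Psmb10, Psme1, Psme2 and the cap ATPases Psmc3, Psmc4 and Psmc5, beside 29.0% of all genes. The median log2 ratio of the 44 genes for this contrast was 0.92 in CEP and 1.39 in Vehicle, and the medians of all genes were 0.48 and 0.77. The contrast was not taken in cells of 1 rule only. Cells of several rules held 13.7% of the CEP and 5.58% of the Vehicle neutrophil UMIs. None was 2-fold higher in T cells than in macrophages, beside 14.4% of all genes. In epithelial cells 5 were 2-fold higher than in macrophages, beside 23.7% of all genes: the cap genes Psmc2, Psmd7 and Psmd11, the assembly factor Psmd5, and Psmc3ip. The median of the 17 cap genes was then 0.65 in CEP and 0.64 in Vehicle, while that of the 5 immunoproteasome genes was -0.05 and -0.27.

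For each catalytic pair, the share of the inducible gene in the UMIs of the pair was taken. It describes transcripts only, as neither the proteins nor the subunits built into cores were measured. Over the 3 pairs together, inducible genes gave 66.2% of the UMIs in CEP macrophages (exact binomial interval 65.8 to 66.5%) and 69.5% in Vehicle macrophages (69.2 to 69.7%), a difference of -3.32 percentage points. In cells of 1 rule the shares were 68.1% and 75.0% in neutrophils, 76.3% and 77.3% in T cells, and 67.8% and 65.5% in epithelial cells. Shares were thus lower in CEP in macrophages and neutrophils, beyond counting error, and higher in CEP in epithelial cells.

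The pairs differed among themselves. In macrophages Psmb9 gave 51.4% of the Psmb9 and Psmb6 UMIs in CEP and 56.5% in Vehicle, a difference of -5.10 points, while Psmb8 gave 73.4% and 76.0% of its pair with Psmb5. Psmb10 gave 77.0% and 77.4% of its pair with Psmb7, with intervals that overlap. In neutrophils of 1 rule Psmb9 gave 69.7% and 78.3% of its pair (-8.59 points), Psmb8 69.9% and 76.1%, and Psmb10 56.7% and 57.5%. In epithelial cells the widest difference lay in the Psmb10 pair instead, at 77.5% in CEP and 73.7% in Vehicle. The Psmb9 share was 45.0% and 43.0% there, the lowest of the 4 classes. In these epithelial cells of 1 rule, Psmb10 itself was at 390 and 370 CPM (0.07, interval -0.01 to 0.16). Its partner Psmb7 was lower in CEP, at 113 and 132 CPM (-0.22, interval -0.38 to -0.07). The share of this pair thus also rests on Psmb7, not on Psmb10 alone. Over all epithelial cells Psmb7 was at -0.20, but at 0.44 with cells thinned.

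**Figure D3:**
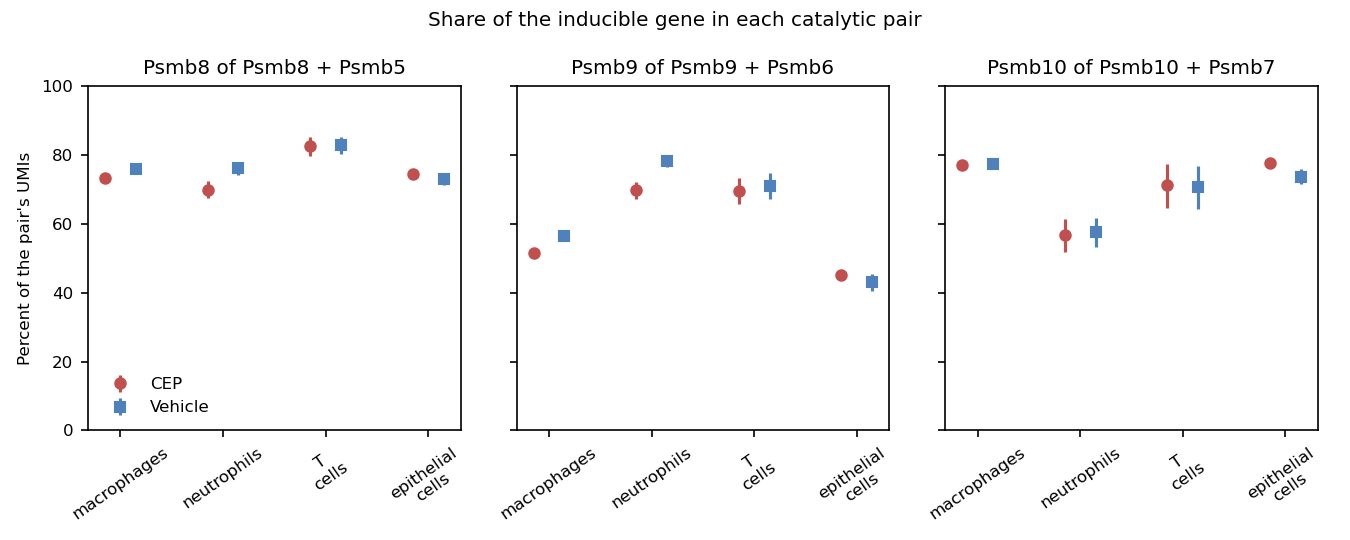
Percent of the UMIs of each catalytic pair that came from the inducible gene, by class, in cells of 1 class rule, with circles for the CEP library, squares for the Vehicle library and bars for exact binomial 95% intervals. The Psmb9 share is 51.4 and 56.5% in macrophages and 69.7 and 78.3% in neutrophils, while the Psmb10 shares overlap there.

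Genes around the proteasome were read from lists that share no member with it. Class I peptide handling was lower in CEP macrophages: all 11 genes lay below the median of all genes, with a list median of -0.19, and 3 were past 1.2-fold lower, beside 6.65% of all genes. These were Tap1 (115 CPM in CEP and 149 CPM in Vehicle, -0.38), Tapbpl, an editor of class I peptides (24.4 and 29.7 CPM, -0.29), and Tap2, the other chain of the transporter (86.7 and 105 CPM, -0.27). The class I chains H2-K1 (-0.17) and H2-D1 (-0.18) and their light chain B2m (-0.24) stayed within the limit. A separate list of 7 interferon-gamma signal genes had a median of -0.16, and 5 of the 7 lay below the median of all genes. In that list Irf1, a transcription factor of the interferon response, was past the limit lower at 103 and 128 CPM (-0.32). Nlrc5, an activator of class I genes, lay just inside the limit at 13.5 and 16.1 CPM (-0.26).

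Of 16 interferon-gamma response genes, 15 were past the limit lower in CEP macrophages and none higher, with a median of -0.41, beside 6.65% and 11.8% of all genes. Socs1, a feedback inhibitor, differed most (36.2 and 59.9 CPM, -0.73), followed by the GTPase Iigp1 (35.5 and 55.5 CPM, -0.64), the chemokine Cxcl9 (-0.61) and the GTPases Gbp2 (-0.60) and Gbp5 (-0.57). The least different genes of the list, Irgm2 (-0.23) and Gbp7 (-0.27), lay among the immunoproteasome genes, at -0.27 to -0.12. In neutrophils of 1 rule the response list had a median of -0.45 over 13 genes measured, and in T cells of 1 rule -0.10 over 11. In epithelial cells it was 0.22, with 8 of 16 genes past the limit higher and 1 lower, beside 13.7% and 17.6% of all genes.

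Genes that assemble or regulate the whole particle were read in the same way. In macrophages none of 11 assembly and associated factors was past 1.2-fold, with a median of -0.03, beside 6.65% of all genes lower and 11.8% higher. Pomp, the chaperone of core assembly, was at 350 and 395 CPM (-0.17), near the inducible genes, and Sem1, a small cap subunit, at 851 and 804 CPM (0.08). The 5 genes that regulate proteasome genes, among them the transcription factor Nfe2l1 (37.5 and 34.4 CPM, 0.12) and its protease Ddi2 (44.1 and 39.7 CPM, 0.15), had a median of 0.12 with none past the limit. The 5 ubiquitin genes had a median of 0.07, also with none past it. In lists this small, a count of none says little beside those shares of all genes.

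Within a class, the immunoproteasome level was higher in cells with more interferon-gamma response UMIs, while the summed core and cap of macrophages differed little between such cells. Cells of 1 rule were thinned to a common depth (2000 UMIs in macrophages, 1000 in neutrophils and 5000 in epithelial cells) and placed in 5 ranges by the UMIs of the 16 response genes, and levels were then taken from all their UMIs. A range is not a cell type, and its limits cut through a continuous scale. Macrophages with 0 response UMIs had an immunoproteasome level of 1978 CPM in CEP and 2202 CPM in Vehicle, and those with 8 or more had 3280 and 3574 CPM. The core was at 3054 and 3371 CPM in the lowest range and 3206 and 3395 CPM in the highest, and the cap at 1571 and 1623 CPM and then 1575 and 1608 CPM.

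In neutrophils and epithelial cells the immunoproteasome was also higher in the highest range than in the lowest. The thinned depth differs between classes, so the same range stands for a different response level in each. Spans can therefore not be compared between classes. In neutrophils the immunoproteasome was at 666.2 CPM in CEP and 792.5 CPM in Vehicle in the lowest range, and at 2391 and 2499 CPM in the highest, which held 34 and 81 cells. In epithelial cells it was at 1655 and 1502 CPM in the lowest range and 3657 and 3720 CPM in the highest, which held 124 and 14 cells. The cap went the other way in neutrophils, from 745.1 and 810.9 CPM to 396.0 and 422.8 CPM. The inducible share of catalytic UMIs went from 61.6 and 63.5% to 76.6 and 77.5% in macrophages, and from 59.4 and 63.4% to 87.7 and 92.3% in neutrophils. The T cells were too few for ranges.

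The genes of the group were not equal in this. In macrophages, Psmb9 was higher in the highest than in the lowest range by 0.94 on the log2 scale in CEP and 0.88 in Vehicle, Psmb10 by 0.94 and 0.78, Psmb8 by 0.75 and 0.74, Psme2 by 0.62 and 0.58 and Psme1 by 0.54 and 0.58. In neutrophils Psmb9 was higher by 2.10 and 2.13, Psme2 by 2.08 and 1.48, and Psmb8 by 1.95 and 1.81. In epithelial cells Psmb10 came to 1.60 and 2.17, next to Psmb9 at 1.73 and 1.94. Of the 14 core genes, Psma5 (0.58 in CEP and 0.44 in Vehicle) and Psma7 (0.17 and 0.17) had intervals above 0 in both libraries of macrophages, and Psmb6 had intervals below 0 in both (-0.23 and -0.16). In macrophages none of the 17 cap genes had an interval off 0 on the same side in both.

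More Vehicle than CEP macrophages lay in the high ranges, and the immunoproteasome was also lower in CEP within each range. A range rests on few UMIs per cell, so cells of the libraries may still differ in response within it. The part of the response in these ratios was not tested. Of the CEP macrophages with enough UMIs, 36.2% lay in the lowest range and 2.90% in the highest, against 28.6% and 5.70% of the Vehicle macrophages. Within the 5 ranges, from lowest to highest, the immunoproteasome log2 ratio of CEP over Vehicle was -0.15, -0.17, -0.20, -0.18 and -0.12, each with an interval below 0. With doublets kept or another random thinning, these ratios lay between -0.21 and -0.11. In the lowest range, which held the most cells, the core ratio was -0.14 (-0.16 to -0.12), close to that of the immunoproteasome. The core had ratios from -0.14 to -0.06 over the ranges and the cap from -0.05 to -0.03. In neutrophils the immunoproteasome ratio ran from -0.25 to 0.12 over the ranges. Its intervals lay below 0 at 0 and at 4 to 7 UMIs. They included 0 in the other ranges, as for the highest ratio (-0.02 to 0.26). The neutrophil core and cap were lower in CEP at 0 UMIs (-0.11 and -0.12) and higher at 2 to 3 UMIs (0.21 and 0.27). These intervals did not include 0, while those of the other ranges did. In epithelial cells the immunoproteasome ratio ran from -0.17 to 0.16, with intervals off 0 on both sides. The median depth of the highest range of macrophages was 10151 UMIs in CEP and 12500 UMIs in Vehicle. The part of depth in the ratio was not tested.

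**Figure D4:**
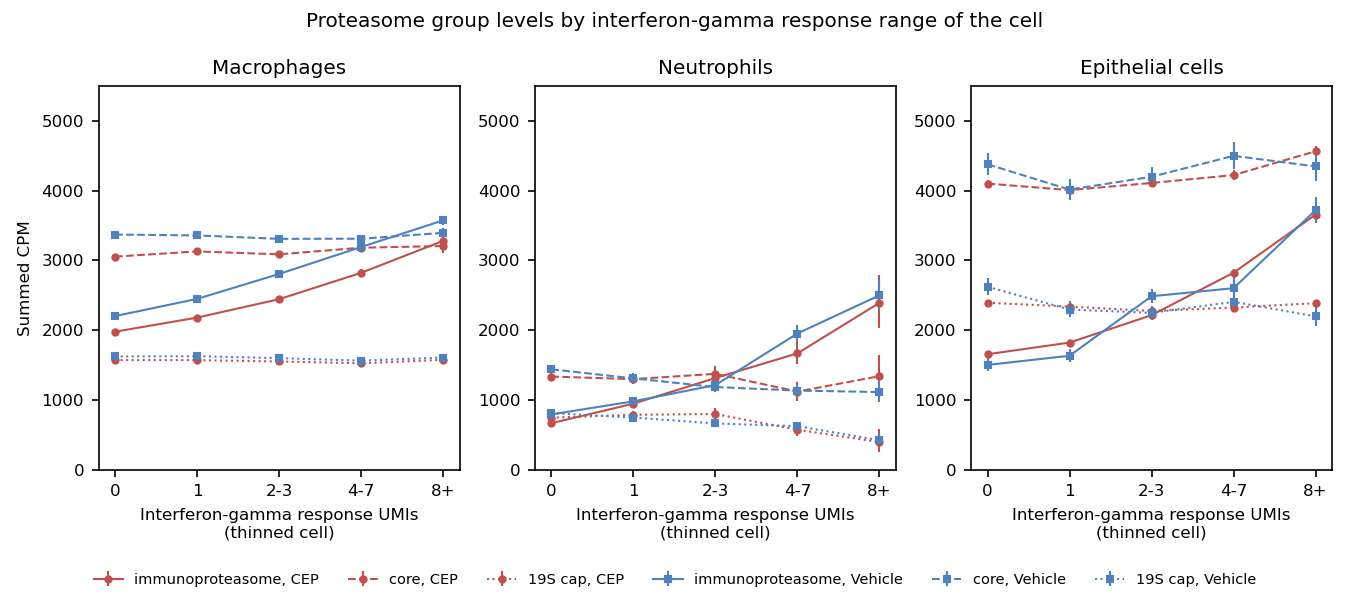
Summed CPM of the immunoproteasome (solid), core (dashed) and cap (dotted) genes against the range of interferon-gamma response UMIs of the thinned cell, with red circles for CEP, blue squares for Vehicle and bars for Poisson 95% intervals. In macrophages the solid lines go from 1978 and 2202 CPM to 3280 and 3574 CPM while the cap stays between 1525 and 1627 CPM.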

How the data were processed

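Gene-by-cell UMI counts were used as deposited by the authors, made with Cell Ranger, version 7.1.0 per the file headers and 5.0.1 per the submitters' processing notes, on mm10. The handling of introns in counting is unknown here. The filter on barcodes required 200 detected genes and allowed 15% mitochondrial UMIs. Scrublet in scanpy 1.11.5 marked 1 and 2 cells by its own threshold, so the top 8% of scores in each library set a limit, and cells past it were removed while ties on it stayed, which took 702 CEP and 777 Vehicle cells. UMIs were summed per class and library and scaled to 1000000. With 1 library per group no test was run. Ratios have exact conditional binomial 95% intervals, levels Poisson and shares Clopper-Pearson intervals. Calls used 1.2-fold, at least 50 UMIs in the class and a pseudocount of 0.5 UMI. Named genes were the immunoproteasome genes, the catalytic core genes, the lowest and highest core and cap genes with at least 200 UMIs in a class, genes past the limit in more than 1 class and, of each pathway list, up to 5 genes past it in macrophages. Others are named where a count of 5 or fewer, or a single contrast, rests on them, and were chosen after their values were seen. Results for 1 gene of a pathway list are not reported here. The members and lists were chosen with earlier results of these data known. Ratios and intervals were tested on simulated counts that held counting error only, so that test does not cover variation between cells. Analyses used Python 3.11.15, numpy 2.4.6, scipy 1.17.1, pandas 2.3.3 and matplotlib 3.10.9. Alternatives covered doublets, class limits, cells of several rules, depth, centring, mitochondrial filters and fold limits.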

Additional observations from a re-analysis of the deposited data

Results flagged for a closer look

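Differences between classes drew attention because the log2 ratios of CEP over Vehicle had opposite signs in the classes compared. Each class came from the same 2 libraries, and none of the differences was tested. The immunoproteasome ratio of epithelial cells exceeded that of macrophages by 0.29 and that of neutrophils by 0.16 on the log2 scale. Restricted to cells of 1 rule, these differences were 0.28 and 0.33. The Vehicle library gave only 111 of the epithelial cells. The ratio of T cells exceeded that of macrophages by 0.31 for the constitutive core and by 0.31 for the 19S cap, on 170 CEP and 258 Vehicle T cells. Restricted likewise, they were 0.24 and 0.22. With each cell thinned to 1000 UMIs the core ratios no longer had opposite signs, with a difference of 0.00, and the cap difference was 0.27.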

How the results depend on the processing

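No paired analysis was possible because each group holds 1 library. In macrophages the immunoproteasome log2 ratio was -0.23 with cells thinned to 1000 UMIs and -0.24 centred on the median of all genes. The core there was -0.10 with doublets kept, -0.12 as the mean over cells, -0.08 thinned and -0.13 centred, and the cap -0.03 with doublets kept, -0.02 thinned and -0.06 centred. The difference in catalytic share was -4.30 points thinned. Genes lower in CEP numbered 0 with doublets kept or a 1.5-fold limit, and 2 thinned or centred.

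In neutrophils the immunoproteasome ratio was -0.01 with doublets kept, -0.27 without cells of several rules, -0.26 also without fibroblast-marked cells, -0.32 after a split on S100a8 and S100a9, -0.30 as the mean over cells, -0.29 thinned, -0.22 with class limits doubled and -0.18 centred. In the same order the core was 0.34, -0.01, -0.06, 0.00, -0.06, -0.03, 0.10 and 0.18, and the cap 0.38, 0.02, -0.02, 0.04, 0.00, -0.05, 0.08 and 0.19. The catalytic share differed by -5.74 points without fibroblast-marked cells, -5.52 as the mean over cells and -5.85 thinned. Genes lower numbered 4 without cells of several rules, 5 without fibroblast-marked cells, 5 after the S100 split, 6 as the mean over cells, 9 thinned, 2 with limits doubled and 0 at 1.5-fold. Genes higher numbered 1, 0, 3, 3, 5, 11 and 3 in that order.

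In T cells the immunoproteasome was -0.02 with limits doubled and -0.13 thinned. The core was 0.09 without fibroblast-marked cells, 0.11 with limits doubled, 0.06 as the mean over cells and -0.08 thinned, and the cap 0.10 as the mean over cells. Genes higher numbered 2 thinned, 2 at 1.5-fold and 9 as the mean over cells, and genes lower 2 with 10 UMIs or limits doubled, 3 thinned or as the mean over cells and 0 at 1.5-fold. In epithelial cells the immunoproteasome was 0.26 thinned and 0.11 as the mean over cells, the core 0.01 centred, -0.05 thinned and 0.03 as the mean over cells, and the cap 0.14 thinned and 0.03 as the mean over cells. Their catalytic share differed by 0.72 points thinned. Genes lower numbered 0 centred or at 1.5-fold and 9 thinned, and genes higher 12 thinned and 1 as the mean over cells.

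Of 634 alternatives for named genes, 518 lay inside the counting interval of the main value and 21 reversed. Where that interval includes 0, a value inside it may have the other sign, and no reversal was counted. Wide intervals therefore raise the first count. In neutrophils Psma5 was -0.19 without fibroblast-marked cells, -0.05 after the S100 split, and -0.11 without cells of several rules or as the mean over cells. Psmb10 was -0.03 without fibroblast-marked cells, -0.01 without cells of several rules, -0.10 thinned and -0.06 as the mean over cells. Psmd6 was -0.05 without fibroblast-marked cells, -0.09 after the split, -0.12 with limits doubled and -0.13 thinned. Psmb7 was -0.07 thinned and -0.06 as the mean over cells, Psmd7 -0.01 without fibroblast-marked cells and -0.14 as the mean over cells, Psmd1 -0.18 without fibroblast-marked cells and Psmd2 -0.07 as the mean over cells. Thinned, Psmb5 was 0.03 in macrophages, and Psmb7 0.44 and Psmd13 0.77 in epithelial cells. The cause was not tested. The fibroblast and S100 settings were chosen after seeing the data, as were those for the ratios within response ranges. Depth limits single genes in T cells and neutrophils.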

Other observations

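Psma8, the core subunit of the testis, had 178 UMIs in CEP and 220 UMIs in Vehicle macrophages, 1 and 2 UMIs in neutrophils, and 0 UMIs in T cells and epithelial cells of both libraries.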
